A study of Mus musculus with 45 samples.

Results

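Gene expression was compared between 2 groups of mouse mammary tumour cell lines grown in control medium, the Myc310 lineage (7 lines) and the MYAZ lines (3 lines). The lines were chosen by their labels, and they account for 30 of the 45 libraries of the series, 21 of the lineage and 9 of MYAZ, and for 10 of its 11 lines. The remaining libraries, from medium without cysteine and cystine or from the line MYAZ12_3i_NDI1, were used only where named. The study asked how tumour cells of differing metastatic capacity supply themselves with cysteine and glutathione. It sequenced mRNA of these lines to see whether particular transcription factors or genetic drivers lay behind the metabolic changes.

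All 10 lines go back to mammary tumours of MMTV-cMYC transgenic mice, in which a mouse mammary tumour virus promoter drives Myc mainly in the mammary epithelium, so the transgene is common to both groups. MYAZ16_1e, MYAZ12_3i and MYAZ6_6g were established from such tumours, and the study treats the last pair as biological replicates of the first. Myc310 was established from a tumour of a single animal that carried several tumours. LM1, LM2 and LM3 were grown out of whole lungs of mice whose fat pads had received Myc310 cells, and LM1_LM, LM2_LM and LM3_LM out of lungs in a further round that started from LM1 cells, as the study states it for LM1_LM, with the other two described as its biological replicates. No sort against host lung cells is described for the LM and LM_LM lines. The 7 lineage lines therefore share 1 founder, and what they have in common relative to MYAZ has been sampled from 1 founder line. No source describes any of the lines as a clone. Cells were seeded at 250000 per well, given fresh control medium after 24 h and harvested 6 h later. The study limits part of this step to MYAZ16.1e, Myc310, LM1 and LM1-LM. Its wording leaves unclear whether the other lines had the medium change. Each line had 3 cultures, which the series calls technical replicates, and these were summed to 1 profile per line. Values below are CPM, the counts of these sums scaled to library size with TMM factors, and log2 fold changes are lineage against MYAZ.

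Tumour cells that carry excess Myc are under pressure from the p53 pathway. The Cdkn2a locus encodes ARF, which holds Mdm2 away from p53, and a cyclin-dependent kinase inhibitor of the RB pathway, and the adjacent Cdkn2b encodes a second inhibitor of that kind. Mdm2 marks p53 for degradation and is itself a p53 target, as are the cell cycle inhibitor Cdkn1a and the death effector Bax. Mammary epithelium holds luminal cells with keratins 8 and 18 and basal cells with keratins 5 and 14, p63 and contractile proteins. When such cells take on a mesenchymal state they lose E-cadherin and Epcam and gain vimentin, N-cadherin and matrix proteins.

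Total gene counts lay between 19517859 and 29019988 for the MYAZ cultures (median 23174191) and between 19521444 and 26303095 for those of the lineage (median 22795359). Both groups expressed keratin 8 and vimentin at high levels, with E-cadherin near 0. Krt8 ranged from 836.0 to 1751.6 CPM in the lineage and from 219.6 to 794.2 CPM in MYAZ, and Vim from 3269.8 to 3947.4 CPM and from 2797.7 to 3971.6 CPM. Cdh1, which encodes E-cadherin, stayed at or below 0.0298 CPM in the lineage lines and 0.141 CPM in the MYAZ lines, and the luminal factor Elf5 had no count in any of the 10 lines. Ocln, which encodes the tight junction protein occludin, was detected in all 10 lines, at 0.734 to 3.07 CPM. Of these luminal markers Krt8 was thus abundant, while Cdh1 and Elf5 were at or near 0. Myc was measured at 421.9, 591.6 and 579.1 CPM in MYAZ16_1e, MYAZ12_3i and MYAZ6_6g and between 712.4 and 1357.9 CPM (median 1079.1) in the lineage, without overlap (log2 fold change 0.96 ± 0.20 SE, adjusted p = 0.00309, edgeR). With the 7 related lines summed to 1 unit, the adjusted p for Myc was 0.071. A gene count does not tell transcripts of the transgene from those of the endogenous gene.

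Roughly equal numbers of genes were higher and lower in the lineage. Of 14644 genes tested with edgeR's quasi-likelihood test, 5703 passed a Benjamini-Hochberg adjusted p of 0.05 (38.9% of the genes tested), of which 2736 (18.7%) were higher and 2967 (20.3%) lower. More than a 2-fold difference was seen for 2053 of them, 849 higher and 1204 lower. For 4980 genes (34.0%) every lineage line lay beyond every MYAZ line, with the lineage above for 2498 (17.1%) and below for 2482 (16.9%), and 4657 (31.8%) also passed the test. Taken over single libraries, the genes whose lineage and MYAZ lines do not overlap numbered 2944. The median log2 fold change over all genes tested was 0.003. The unit of replication decided the size of the list: with the lineage summed to 1 unit against the 3 MYAZ lines, 625 genes passed (4.04% of those tested, 298 higher and 327 lower), and 601 of them were among the 5703 genes, all in the same direction. With Myc310 alone against MYAZ 595 genes passed. The adjusted p-values of the fit over 7 lines measure the spread between lines and do not measure the spread between founders.

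The first principal component, which held 61.4% of the variance, parted the groups, and the second (12.3%) parted lines within the lineage. As a root mean square difference over genes on the log2 scale, lineage lines lay 1.38 to 1.64 from MYAZ lines (21 pairs), 0.441 to 0.967 from each other (21 pairs), and MYAZ lines 0.539 to 0.841 from each other (3 pairs). Every distance between the groups was thus larger than every distance within a group. Among lineage lines, LM3 and LM3_LM were the nearest pair (0.441), followed by LM1 and LM1_LM (0.515), and LM2 lay nearest to LM3_LM (0.644). Myc310 lay 0.753 to 0.931 from its 6 descendants. The median SD of a gene's log2 CPM was 0.222 among MYAZ lines and 0.183 among lineage lines.

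**Figure D1:**
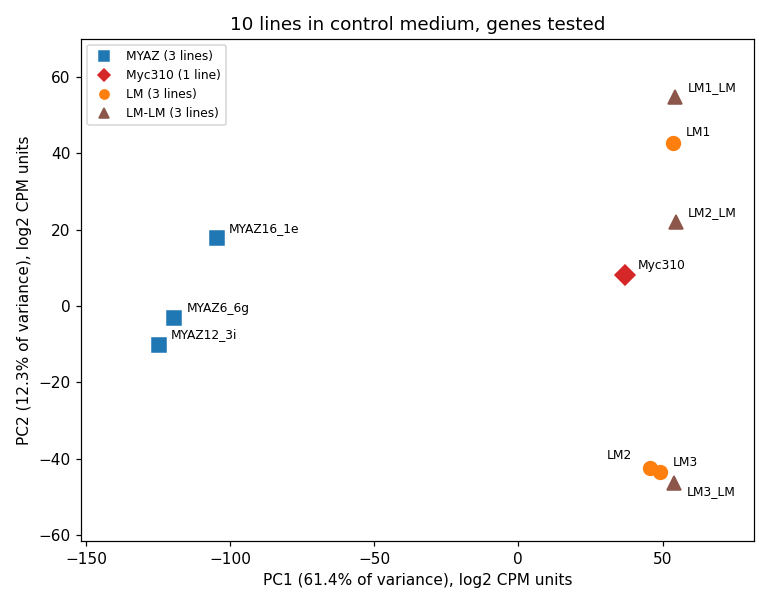
Position of each of the 10 lines on the first and second principal components of log2 CPM (axes in log2 CPM units, share of variance in brackets), 1 point per line with 3 cultures summed. The 3 MYAZ lines sit at negative PC1 values and the 7 lineage lines at positive ones, and PC2 spreads the lineage with LM1_LM at the top and LM3_LM at the bottom.

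Among called genes without overlap whose log2 CPM averaged 3 or more over the 10 lines, the 12 largest increases were in genes of quite different function. Each of the 12 stayed below 5 CPM in every MYAZ line. Below that limit on level lay other large increases, among them Tmem47 (log2 fold change 14.72). Ppic (ENSMUSG00000024538, chromosome 18), which encodes cyclophilin C, a prolyl isomerase of the secretory pathway, had no count in any of the 9 MYAZ libraries. In the lineage it was measured at 105.1 CPM in Myc310 and between 91.3 and 139.0 CPM over the 7 lines (median 120.4), which against a floor of 3 counts over the MYAZ libraries was at least 8460-fold higher (adjusted p = 8.21e-08, edgeR). Srgn, which encodes the proteoglycan serglycin, was at 0.0141, 0.0703 and 0.0704 CPM in the MYAZ lines and at 31.6 to 169.2 CPM in the lineage (median 62.4), lowest in Myc310. Nid1 (ENSMUSG00000005397, chromosome 13, plus strand, 13437551 to 13512269, GRCm38), which encodes the basement membrane linker nidogen, was the most highly expressed of the 12, at 1.13, 3.11 and 2.01 CPM in MYAZ and 324.3 to 475.9 CPM in the lineage (median 385.6, log2 fold change 7.57 ± 0.33 SE, adjusted p = 2.41e-07). The absence of overlap was part of the rule that chose these genes.

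Genes that are best known from blood cells were among the 12. Ptpn7, a tyrosine phosphatase of haematopoietic cells, reached 74.9 to 142.1 CPM in the lineage against 0.268 to 0.520 CPM in MYAZ (log2 fold change 8.01). Apbb1ip, an adaptor between Rap1 and integrins, was at 84.0 to 116.1 CPM against 2.04 to 3.82 CPM (log2 fold change 5.05 ± 0.22 SE, adjusted p = 2.35e-07, edgeR). Of the leukocyte markers, Ptprc was at or below 0.0148 CPM in every lineage line, while Itgam and Cd68 were higher in the lineage (log2 fold changes of 3.93 and 1.37), and the part of such cells was not tested. Enzymes of glycoprotein processing were also present: Uggt2, which reglucosylates misfolded glycoproteins in the endoplasmic reticulum, was at 41.8 to 55.8 CPM against 0.226 to 0.563 CPM, and Galnt3, which starts O-linked glycans, at 32.2 to 59.8 CPM against 0.0984 to 0.706 CPM.

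The other 5 increases were the potassium channel subunit Kcnab2 (63.8 to 140.7 CPM against 0.367 to 0.914 CPM), the membrane protein Tmem252 (18.4 to 57.1 against 0.113 to 0.577 CPM), the TNF receptor family member Tnfrsf26, the organic anion transporter Slco4a1 (44.2 to 69.4 against 0.268 to 1.59 CPM) and the actin-associated Afap1l1. Afap1l1 was highest in Myc310 itself, at 177.0 CPM, and between 78.8 and 123.9 CPM in the descendants, with MYAZ at 0.551, 4.58 and 1.39 CPM. Tnfrsf26 varied most within the lineage, from 5.45 CPM in LM1_LM and 18.2 CPM in LM1 to 88.5 CPM in LM3_LM, above MYAZ levels of 0.492 to 0.788 CPM in each line. Its adjusted p was 0.00043 with edgeR and 0.0562 with limma's voom on single libraries. The annotated gene Gm16334 overlaps Kcnab2 on the same strand, and reads of the 2 cannot be separated in a gene count.

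Of the 12 largest decreases, ranked among called genes without overlap whose log2 CPM averaged 3 or more, 3 were in genes of the extracellular matrix. Larger decreases lay below that limit on level, among them Cdkn2a and Cdh2 (log2 fold changes of -16.22 and -10.32). Fn1 (ENSMUSG00000026193, chromosome 1, minus strand, 71585520 to 71653200), which encodes fibronectin, was measured at 380.2, 1208.2 and 1085.1 CPM in MYAZ16_1e, MYAZ12_3i and MYAZ6_6g. In the lineage it lay between 0.325 CPM in LM2 and 12 CPM in LM1_LM (median 6.06), with Myc310 at 0.600 CPM (log2 fold change -7.41 ± 0.92 SE, adjusted p = 0.000157, edgeR). Thbs1, which encodes the matricellular protein thrombospondin 1, was at 76.4, 108.4 and 87.8 CPM in MYAZ and 1.40 to 5.34 CPM in the lineage (log2 fold change -4.77 ± 0.36 SE, adjusted p = 7.34e-06). Vcan, which encodes the proteoglycan versican, was at 222.3, 330.7 and 414.2 CPM in MYAZ. Its lineage levels were spread widely, with LM3 at 40.5 and LM3_LM at 70.1 CPM and the other 5 lines between 0.628 and 10.4 CPM (adjusted p = 0.0161, and 0.0637 with 4 subtypes in the edgeR model). These genes were chosen among those without overlap between groups.

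Cell surface and signalling genes made up most of the rest. Ptprf, the receptor phosphatase LAR, was at 188.5 to 261.7 CPM in MYAZ and at 1.56 to 7.59 CPM in the 6 descendants, with Myc310 between them at 23.1 CPM. Ly75, an endocytic receptor, was at 75.1 to 123.8 CPM in MYAZ, 0.410 CPM in Myc310 and 2.03 to 19.3 CPM in the descendants. Tmem176a and Tmem176b, neighbouring membrane protein genes on chromosome 6, differed alike: Tmem176a was at 96.2 to 168.8 CPM in MYAZ and 2.52 to 20.5 CPM in the lineage, and Tmem176b at 150.6 to 214.9 CPM and 3.94 to 32.4 CPM. In both, LM1_LM and LM2_LM were the lowest lines.

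Fstl3, which encodes a binding inhibitor of activin, was at 63.1 to 87.5 CPM in MYAZ and 7.62 to 20.9 CPM in the lineage. Ccdc102a, a coiled-coil gene, showed the tightest groups, at 35.1, 41.6 and 38.8 CPM in MYAZ and 5.40 to 8.74 CPM in the lineage (log2 fold change -2.59 ± 0.14 SE, adjusted p = 9.91e-07, edgeR). For Rgl1, an exchange factor for Ral, Msrb3, a methionine sulfoxide reductase, and Cotl1, an actin-binding protein, MYAZ16_1e was the lowest MYAZ line, at 20.5, 36.1 and 23.4 CPM, against lineage maxima of 5.30, 13.6 and 14.7 CPM. These 3 genes lost the threshold with the lineage as 1 unit or with Myc310 alone, and the annotated genes Gm15479 and Gm7278 overlap Rgl1 on the same strand. The other 21 of the 24 genes passed in both of those fits.

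**Figure D2:**
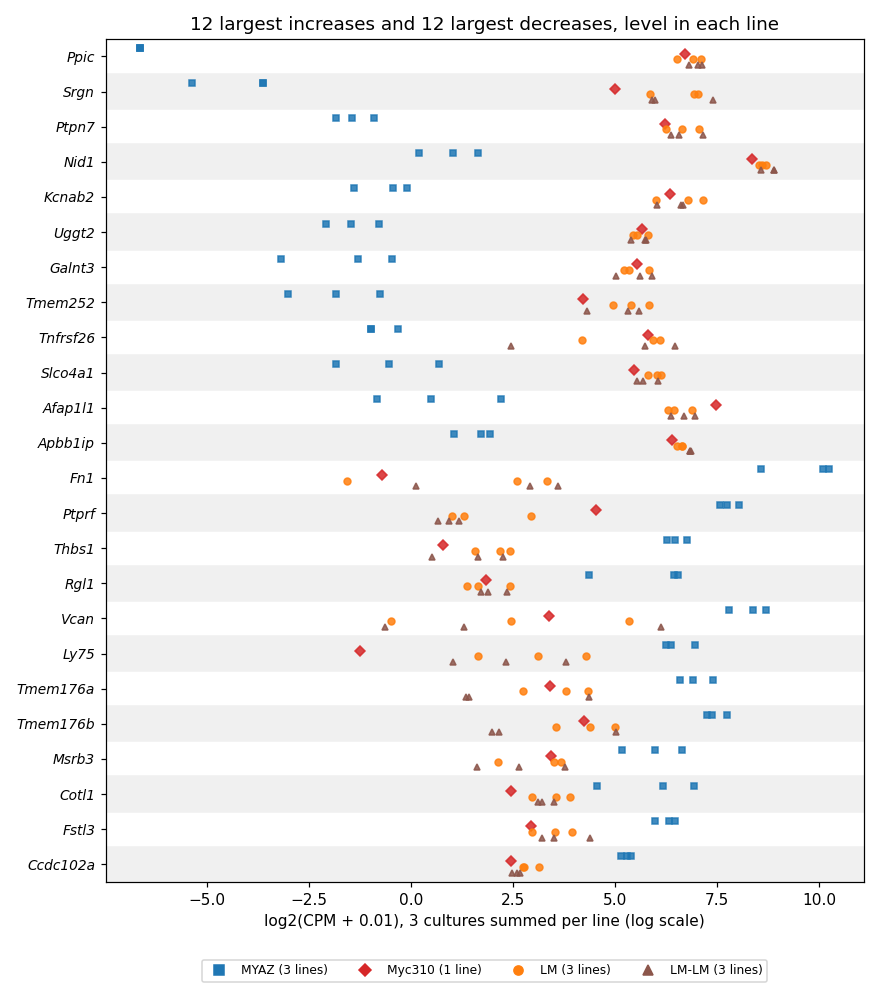
Level of the 12 genes most increased and the 12 most decreased in the lineage, among called genes without overlap whose log2 CPM averaged 3 or more over the 10 lines. Values are log2(CPM + 0.01) on a log scale, 1 point per line with its 3 cultures summed and colour and shape by subtype. By the rule that chose the genes, the 7 lineage points lie on one side of the 3 MYAZ points, with Ptprf in Myc310 at 23.1 CPM and Vcan in LM3_LM at 70.1 CPM as the lineage points that come closest to MYAZ for those genes.

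A set of 37 genes was expressed in every MYAZ line and absent or nearly so in the lineage, by a rule of at most 3 counts in each of the 21 lineage libraries and at least 1 CPM in each MYAZ line. Of these, 35 were protein coding and 12 had no count at all in the lineage. Cdkn2a (ENSMUSG00000044303, chromosome 4, minus strand, 89274471 to 89294653) was the most highly expressed, at 141.5, 130.7 and 137.0 CPM in the MYAZ lines (136.4 ± 5.41, SD, n = 3) and with 0 counts in all 21 lineage libraries, at least 21768-fold lower. Cdkn2b (ENSMUSG00000073802, 89306299 to 89311039, same strand) lies 11646 bases away with no listed gene in between, and was at 21.9, 19.1 and 25.7 CPM in MYAZ with 0 counts in the lineage, at least 3553-fold lower. Mtap, the methylthioadenosine phosphorylase gene of the same locus, was expressed in both groups and higher in the lineage (213.8 to 299.4 CPM in MYAZ, 395.4 to 494.0 CPM in the lineage, log2 fold change 0.72 ± 0.10 SE, adjusted p = 0.00041, edgeR). The loss of signal thus covered both inhibitor genes in each of the 7 lines and did not extend to Mtap.

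The promoter windows of these neighbours are shown because both genes had no count in the lineage, next to that of Tmem47, a gene with the opposite pattern. They run from 250 bases before to 50 bases after an annotated start (RefSeq, GRCm38.p6), and capitals mark the dinucleotide CG, the site of DNA methylation, which reads the same on both strands.
Cdkn2a, first window: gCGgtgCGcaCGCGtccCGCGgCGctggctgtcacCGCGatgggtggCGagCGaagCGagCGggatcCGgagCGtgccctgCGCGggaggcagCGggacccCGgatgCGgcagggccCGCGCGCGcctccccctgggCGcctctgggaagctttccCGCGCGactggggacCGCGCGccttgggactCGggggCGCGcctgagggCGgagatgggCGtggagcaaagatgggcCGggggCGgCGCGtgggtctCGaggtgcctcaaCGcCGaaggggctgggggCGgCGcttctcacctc
Cdkn2a, second window: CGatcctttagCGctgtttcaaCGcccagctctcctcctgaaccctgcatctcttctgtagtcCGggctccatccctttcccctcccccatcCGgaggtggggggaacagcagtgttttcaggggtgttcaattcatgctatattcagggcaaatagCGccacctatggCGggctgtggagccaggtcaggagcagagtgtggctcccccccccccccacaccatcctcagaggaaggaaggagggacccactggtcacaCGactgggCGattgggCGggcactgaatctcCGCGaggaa
Cdkn2b: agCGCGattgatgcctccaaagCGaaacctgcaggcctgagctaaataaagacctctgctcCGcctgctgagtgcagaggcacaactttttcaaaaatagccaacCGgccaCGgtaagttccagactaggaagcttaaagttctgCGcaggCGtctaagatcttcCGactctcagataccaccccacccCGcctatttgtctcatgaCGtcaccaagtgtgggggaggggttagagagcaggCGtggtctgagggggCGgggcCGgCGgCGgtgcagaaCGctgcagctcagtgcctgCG
Tmem47: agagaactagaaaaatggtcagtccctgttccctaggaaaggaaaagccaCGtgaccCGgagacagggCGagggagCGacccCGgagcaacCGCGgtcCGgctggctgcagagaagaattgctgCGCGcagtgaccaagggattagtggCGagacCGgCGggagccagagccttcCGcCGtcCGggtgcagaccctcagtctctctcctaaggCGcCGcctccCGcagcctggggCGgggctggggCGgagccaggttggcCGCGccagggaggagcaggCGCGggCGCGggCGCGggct
They lie at chr4:89294570-89294869 (first Cdkn2a window, minus strand), chr4:89282143-89282442 (second Cdkn2a window, minus strand), chr4:89310983-89311282 (Cdkn2b, minus strand) and chrX:81070394-81070693 (Tmem47, plus strand). The motif CG occurred 45 times in the first Cdkn2a window, 12 times in the second, 18 times in that of Cdkn2b and 29 times in that of Tmem47. Over all 32851 windows of this length in the table, 94.6% held at least 1 CG and the median was 7. As many as 45 were found in 1.93% of windows, at least 29 in 12.9%, at least 18 in 29.7% and at least 12 in 39.6%. Neither methylation nor DNA copy number was measured here, and why these genes had no count was not tested.

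Several developmental transcription factors were among the 37. Sox4 was at 71.4, 68.6 and 72.2 CPM in MYAZ and had 9 counts over the 21 lineage libraries, a ratio of 3763 (95% interval from counting error 1982 to 8230). Runx3 was at 55.2, 42.5 and 56.1 CPM in MYAZ with 1 count in the lineage, and Gata6 at 31.7, 21.8 and 23.9 CPM with none. Dlx2, Tlx3 and Foxl2 had no lineage count either, at means of 13.6, 10.9 and 7.59 CPM in MYAZ, and Pparg had 11 counts against a MYAZ mean of 3.25 CPM. The secreted pattern recognition protein Ptx3 was at 29.6, 48.3 and 34.7 CPM in MYAZ and without a count in the lineage, at least 5993-fold lower. Signalling genes of the set were the ligands Bmp4 and Wnt4 and the receptors Fgfr2 and Ephb3, and the splicing factor of epithelial cells Esrp2 was at 2.06, 3.20 and 1.66 CPM in MYAZ and had 11 lineage counts. The set is spread over chromosomes and holds no gene of the X chromosome.

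A smaller set of 24 genes showed the opposite pattern, silent in MYAZ and expressed in each lineage line, of which 21 were protein coding and 14 had no count in any of the 9 MYAZ libraries. Ppic led this set. Tmem47 (ENSMUSG00000025666, chromosome X, plus strand, 81070698 to 81097872), which encodes a membrane protein of cell junctions, was at 35.8 to 67.8 CPM in the lineage (median 42.5) with no MYAZ count, at least 3470-fold higher. Zfhx4, a zinc finger homeobox factor, was at 38.6 to 52.5 CPM with 1 count in MYAZ, and Tfpi, the inhibitor of the tissue factor pathway of coagulation, at 28.9 to 54.9 CPM with 4 counts. Gypc, a membrane skeleton glycoprotein, was at 31.5 to 39.5 CPM with 1 MYAZ count. Fbp2, a fructose bisphosphatase of gluconeogenesis, was uneven, at 143.7 CPM in LM2_LM and 11.9 to 53.5 CPM in the other 6 lines.

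Neighbouring genes appeared in this direction too. Evc and Evc2, a divergent pair on chromosome 5 separated by 1605 bases whose products act together in Hedgehog signalling at the cilium, were at 15.2 to 29.9 CPM and 26.2 to 35.9 CPM in the lineage, with no count in MYAZ. On the X chromosome 3830403N18Rik and Gm773 lie 36329 bases apart, with 1 listed gene in between, and were at 12.6 to 35.5 CPM and 1.75 to 36.1 CPM. In all, 7 of the 24 genes (29.2%) lay on the X chromosome, which holds 3.02% of the genes tested, among them the iron-binding nuclear protein gene Pir at 7.43 to 9.92 CPM. Pax5, the B cell factor, was at 1.43 to 12.3 CPM.

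The p53 pathway list stood out for how many of its members differed in 1 direction. Of 26 members tested, 19 were higher and 4 lower (88.5% past the threshold, against 38.9% of all genes tested), and the median log2 fold change was 0.68. The list and its members were chosen with earlier results of these data known. Trp53 itself, which encodes p53, was at 321.1, 268.7 and 247.4 CPM in MYAZ and 223.6 to 268.0 CPM in the lineage (log2 fold change -0.23, adjusted p = 0.0517, edgeR). Mdm2 was at 70.4, 60.5 and 61.8 CPM in MYAZ and 137.9 to 208.5 CPM in the lineage (log2 fold change 1.27 ± 0.13 SE, adjusted p = 4.8e-05). Mdm4, its partner, was higher by 0.33 on the log2 scale (adjusted p = 0.0431).

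Among the p53 targets 15 of 19 tested were higher, against 18.7% of all genes tested. Cdkn1a, the cell cycle inhibitor p21, was at 26.7, 22.2 and 21.4 CPM in MYAZ and 80.9 to 200.8 CPM in the lineage (median 131.2, log2 fold change 2.51 ± 0.28 SE, adjusted p = 8.03e-05, edgeR). Ccng1, which encodes cyclin G, was at 43.0 to 75.3 CPM against 251.2 to 396.9 CPM (log2 fold change 2.52 ± 0.23 SE), and Bax, the pore-forming death effector, at 64.4 to 73.7 CPM against 123.5 to 155.7 CPM (log2 fold change 1.05 ± 0.09 SE, adjusted p = 2.06e-05). Eda2r, a receptor of the TNF family on the X chromosome, was at 0, 0.337 and 0.155 CPM in MYAZ and 20.7 to 44.6 CPM in the lineage. Perp, a membrane protein of desmosomes, was at 4.92 to 8.90 CPM against 30.5 to 84.4 CPM, and Zmat3, an RNA-binding protein, at 25.8 to 32.8 CPM against 65.9 to 106.7 CPM. The lineage lines lay above every MYAZ line for each of these 6 genes.

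The 2 targets that were lower were Fas, the death receptor, at 1.43 to 3.91 CPM in MYAZ and 0.149 to 0.803 CPM in the lineage, and Sesn1, a stress-induced inhibitor of mTORC1, at 15.6 to 34.2 CPM and 7.88 to 16.9 CPM with overlap. Sesn2 of the same family was higher (log2 fold change 1.35 ± 0.14 SE). Plk2 and Pmaip1 did not pass the threshold. With the lineage as 1 unit 10 members passed, namely Bax, Ccng1, Cdkn1a, Eda2r, Mdm2, Perp, Trp53inp1 and Zmat3 higher and Cdkn2a and Cdkn2b lower.

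**Figure D3:**
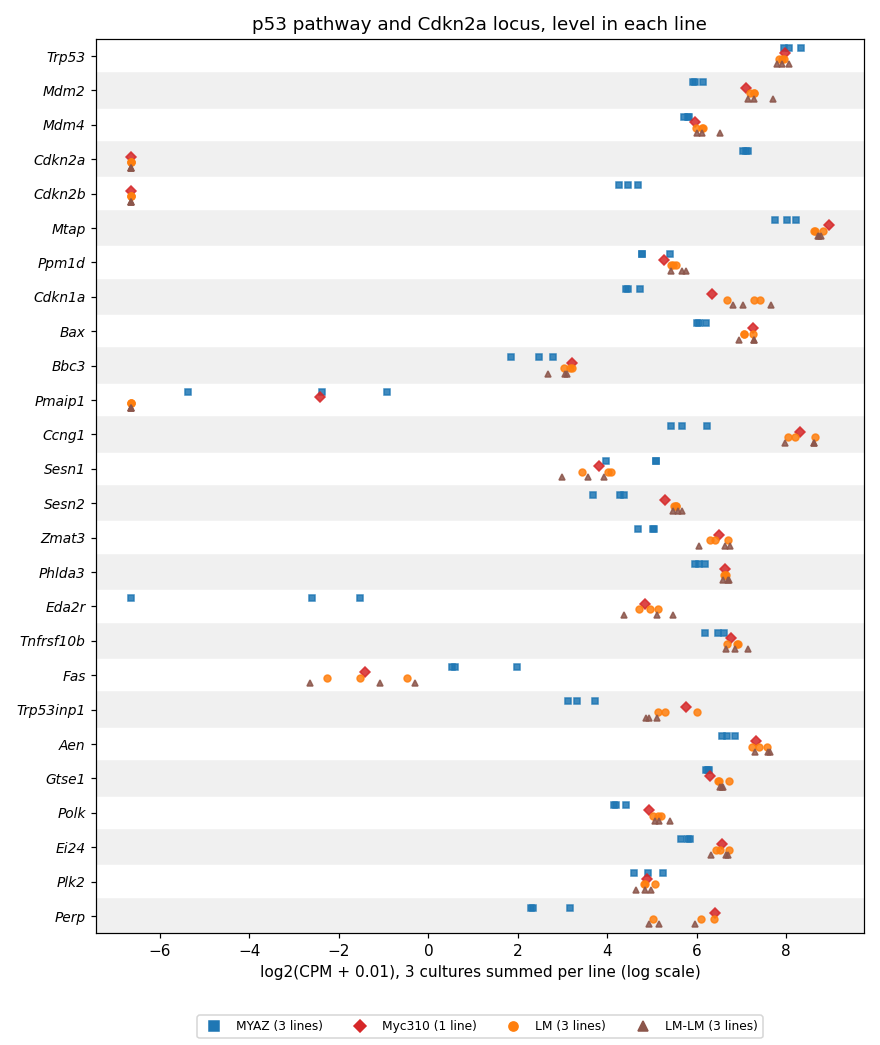
Level of the 26 tested members of the p53 pathway and Cdkn2a locus list, as log2(CPM + 0.01) on a log scale, 1 point per line with its 3 cultures summed and colour and shape by subtype. Cdkn2a and Cdkn2b sit at 0 CPM in the 7 lineage lines, while Cdkn1a, Ccng1, Eda2r and Perp lie higher in each lineage line than in each MYAZ line.

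Of the 12 tested basal epithelial genes 7 were lower and 2 higher in the lineage (75% past the threshold against 38.9% of all genes tested, median log2 fold change -1.51). Transcription factors and contractile genes made up 5 of the 7 lower members. Acta2, smooth muscle actin, was at 5.96 CPM in MYAZ16_1e, 311.2 in MYAZ12_3i and 246.8 in MYAZ6_6g, and at 0.0293 to 1.72 CPM in the lineage (log2 fold change -9.18 ± 1.18 SE, adjusted p = 0.000203, edgeR). Trp63, which encodes p63, was at 0.282 to 0.479 CPM in MYAZ and at most 0.0159 CPM in the lineage. The basal keratins were low in both groups: Krt14 was at 0.297 to 0.577 CPM in MYAZ and at most 0.0712 CPM in the lineage. Krt5 was at most 0.0738 CPM in any line and was not tested. Both integrin genes of the hemidesmosome receptor were higher: Itga6 was at 73.6 to 111.6 CPM in MYAZ and 172.8 to 297.2 CPM in the lineage (log2 fold change 1.33 ± 0.21 SE), and Itgb4 at 0.197 to 0.337 CPM and 0.634 to 1.34 CPM. Only Trp63 of this list passed with the lineage as 1 unit.

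Of the 34 luminal genes 15 were tested, and 3 of these were higher and 4 lower (46.7%, near the 38.9% over all genes), with a median log2 fold change of -0.02. Krt8 was higher (log2 fold change 1.17 ± 0.39 SE, adjusted p = 0.0344, edgeR), a call that was lost in 8 of its 24 alternative fits, while Krt18 (1.09, adjusted p = 0.0522) and Krt7 (1.57, adjusted p = 0.221) did not pass and Krt19 had a log2 fold change of -0.02. Gata3, the factor that maintains luminal fate, was at 57.9 to 73.1 CPM in MYAZ and 54.7 to 86.5 CPM in the lineage (log2 fold change -0.02, adjusted p = 0.937). Cd24a, a surface glycoprotein of luminal cells, was at 233.7 to 284.3 CPM in MYAZ and 41.2 to 192.9 CPM in the lineage. The milk protein gene Csn3 was higher, at 3.40 to 22.2 CPM against 2.22 to 5.33 CPM with overlap, and its call was lost in 3 of 24 alternative fits.

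Mesenchymal genes differed in both directions, 5 higher and 8 lower of 17 tested (76.5% against 38.9% of all genes, median log2 fold change -0.40). With the lineage as 1 unit 6 of them passed, Mmp2, S100a4 and Twist1 higher and Cdh2, Fn1 and Tcf4 lower. Cdh2, which encodes N-cadherin, was lower, at 76.1, 71.4 and 94.9 CPM in MYAZ and between 0.0146 and 0.103 CPM in the lineage (log2 fold change -10.32 ± 0.27 SE, adjusted p = 4.02e-09, edgeR). Since Cdh1 was also near 0, neither classical cadherin of this pair was expressed above 1 CPM in the lineage. Twist1 and Twist2, transcription factors of the mesenchymal programme, were higher: Twist1 was at 19.2, 26.2 and 25.5 CPM in MYAZ and 82.9 to 120.5 CPM in the lineage (log2 fold change 2.04 ± 0.15 SE, adjusted p = 5.45e-06), and Twist2 at 0.791 to 7.11 CPM and 34.4 to 46.6 CPM. Snai1 was lower by 0.97 on the log2 scale and Zeb1 higher by 0.44. S100a4, a calcium-binding protein linked to motility, was at 65.8 to 106.9 CPM in MYAZ and 230.9 to 461.8 CPM in the lineage. Lox, which crosslinks collagen, was at 1.12 to 9.87 CPM in MYAZ and at most 0.0438 CPM in the lineage. Mmp2 was higher on average (log2 fold change 5.59), yet the founder Myc310, at 0.848 CPM, lay within the MYAZ range, and the 6 descendants were at 38.2 to 143.7 CPM.

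Of 20 collagen and laminin chains tested, 7 were lower and 1 higher (40.0%, close to the 38.9% over all genes). Col7a1, the anchoring fibril collagen, was at 106.8 to 161.0 CPM in MYAZ and 17.6 to 41.0 CPM in the lineage (log2 fold change -2.16 ± 0.21 SE, adjusted p = 3.06e-05, edgeR), and Col12a1 at 17.3 to 103.8 CPM and 1.26 to 10.3 CPM. Col7a1 and Col6a3 passed with the lineage as 1 unit, and Col12a1 did not. Col6a3 was the member that was higher, at 4.82 to 60.1 CPM in the lineage and 0.0847 to 0.914 CPM in MYAZ.

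Of the 24 growth factor ligands tested, 12 were lower and 4 higher (66.7% against 38.9% of all genes, median log2 fold change -0.94). With the lineage as 1 unit 5 passed, Areg and Wnt5b higher and Bmp4, Vegfc and Wnt4 lower. Bmp4 was at 2.81, 17.4 and 12.1 CPM in MYAZ and at most 0.0439 CPM in the lineage, and Wnt4, a ligand of mammary branching, at 7.80 to 10.7 CPM and at most 0.0731 CPM. Wnt5b was at 0.268 to 0.324 CPM in MYAZ, only 0.629 CPM in the founder Myc310 and 1.11 to 5.34 CPM in the descendants. Vegfc, the lymphatic growth factor, was at 10.3 to 11.1 CPM in MYAZ and 0.0271 to 1.59 CPM in the lineage (log2 fold change -4.00 ± 0.65 SE, adjusted p = 0.000784, edgeR), and Vegfa was lower by 1.06 on the log2 scale. Within the EGF family the ligands diverged. Areg (amphiregulin), Hbegf and Tgfa were higher and Btc (betacellulin) and Nrg1 lower. Areg was at 1.02, 0.632 and 0.268 CPM in MYAZ and 8.29 to 26.6 CPM in the lineage (log2 fold change 4.71 ± 0.54 SE, adjusted p = 9.11e-05), and Btc at 0.662 to 3.45 CPM and 0.0271 to 0.143 CPM.

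Among the receptor tyrosine kinases 12 of 24 tested passed, 8 lower and 4 higher (50% against 38.9% of all genes). With the lineage as 1 unit 5 passed, all lower, so that no higher call held there. Fgfr2 had no lineage count and was at a mean of 3.96 CPM in MYAZ, at least 632-fold lower, while Fgfr1 was at similar means of 218.8 and 217.0 CPM (log2 fold change -0.01, adjusted p = 0.953, edgeR). Ephb3 was at 2.70 to 15.5 CPM in MYAZ and at most 0.0271 CPM in the lineage, whereas Epha2 was higher, at 101.9 to 149.7 CPM and 191.2 to 275.5 CPM. The collagen receptor Ddr1 and the TAM receptor Tyro3 were lower by 1.04 and 1.46 on the log2 scale. Egfr, Erbb2 and Met did not pass (log2 fold changes of -1.32, -0.04 and 0.16).

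Genes of glutathione and cysteine metabolism, the subject of the study, passed at a rate of 43.9%, near the 38.9% over all genes, with 7 higher and 11 lower of 41 tested and a median log2 fold change of -0.08. In the uptake and transsulfuration group 2 of 9 passed. Cth, the second enzyme of transsulfuration, was at 11.6, 10.4 and 10.1 CPM in MYAZ and 17.8 to 31.0 CPM in the lineage (log2 fold change 1.08 ± 0.17 SE, adjusted p = 0.000581, edgeR), and Ahcy, which hydrolyses S-adenosylhomocysteine, was lower by 0.43. Cbs, the first enzyme, was at 0.198 CPM in MYAZ16_1e and 2.53 and 2.27 CPM in the other MYAZ lines, and at 0.0584 to 1.92 CPM in the lineage (log2 fold change -1.66, adjusted p = 0.167). The cystine transporter gene Slc7a11 was at 9.95 to 21.4 CPM in MYAZ and 8.84 to 16.6 CPM in the lineage (adjusted p = 0.0869).

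Enzymes of glutathione synthesis were lower where they passed and the reductase was higher. Gss, glutathione synthetase, was at 56.3, 47.1 and 59.0 CPM in MYAZ and 29.3 to 36.4 CPM in the lineage (log2 fold change -0.77 ± 0.09 SE, adjusted p = 8.1e-05, edgeR). Gss and Ahcy lie on chromosome 2, where the genes tested were lower by 0.42 at the median. The catalytic ligase subunit gene Gclc was lower by 0.44 (adjusted p = 0.0163), and the modifier gene Gclm had a log2 fold change of 0.04. Gsr, which recycles oxidised glutathione, was at 88.5 to 123.4 CPM in MYAZ and 169.6 to 215.9 CPM in the lineage (log2 fold change 0.82 ± 0.11 SE, adjusted p = 0.000277). Of the 20 peroxidases and transferases tested 4 were higher, Gsto1, Gstz1 and Mgst3 among them (log2 fold changes of 0.36, 0.40 and 1.21), and 5 were lower, near the 38.9% called over all genes. Gpx3, a secreted glutathione peroxidase, was among the lower ones (log2 fold change -1.51, adjusted p = 0.0481, edgeR). It was at 0.410, 1.31 and 5.15 CPM in MYAZ16_1e, MYAZ12_3i and MYAZ6_6g and 0.571 to 1.14 CPM in the lineage. The study reports a drastic rise of Gpx3 mRNA in its more metastatic lines, with RT-qPCR levels relative to MYAZ16.1e. Every lineage line was above MYAZ16_1e here as well, so the direction depended on the MYAZ line taken as reference. Gsta4 was at 5.67 to 10.3 CPM in MYAZ and 0.854 to 1.68 CPM in the lineage, and Gstm5 at 11.8 to 22.6 CPM and 0.613 to 3.26 CPM. With the lineage as 1 unit Gstm4 and Gstm5 alone passed in this list.

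Class I antigen presentation genes passed at 36.8% (6 lower and 1 higher of 19 tested), close to the rate over all genes. B2m, the invariant light chain, was at 186.7 to 297.0 CPM in MYAZ and 117.6 to 171.6 CPM in the lineage (log2 fold change -0.69 ± 0.15 SE, adjusted p = 0.00445, edgeR), and like Pdia3 and Gss it lies on chromosome 2. In the interferon list 9 were lower and 3 higher of 27 tested (44.4%, near the 38.9% over all genes). Both chains of the type I receptor were lower, Ifnar1 by 0.39 and Ifnar2 by 0.99 on the log2 scale, and Irf3, a factor that induces interferon, was at 40.2 to 42.5 CPM in MYAZ and 58.3 to 69.0 CPM in the lineage. No member of these 2 lists passed with the lineage as 1 unit.

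Of 15 imprinted genes tested 4 were higher and 2 lower (40.0%, close to the 38.9% over all genes). Igf2r, which clears the growth factor IGF2, was at 154.3, 201.5 and 196.1 CPM in MYAZ and 443.6 to 576.4 CPM in the lineage (log2 fold change 1.43 ± 0.11 SE, adjusted p = 9.3e-06, edgeR). Cdkn1c, a further cell cycle inhibitor, was at 0.918 to 6.57 CPM in MYAZ and at most 0.0712 CPM in the lineage, and Gnas, on chromosome 2, was lower by 0.95. Igf2r and Gnas passed with the lineage as 1 unit, and Cdkn1c did not. Of 26 genes usually limited to the germline 6 were tested, and 3 were higher and 1 lower (66.7% against 38.9% of all genes). The higher members Xlr3a, Xlr4a and Tex101 had 0, 0 and 6 MYAZ counts and entered the test through their lineage levels. Tdrkh, the lower one, had 4 lineage counts and entered through MYAZ. The share is thus largely set by the expression filter, and no conclusion on the list is drawn from it. Xlr3a, Tex101 and Tdrkh passed with the lineage as 1 unit. Xlr3a had no MYAZ count and ranged from 0.624 to 17.3 CPM in the lineage, and Xlr4a was at most 0.541 CPM. Tex101 ranged from 0.0407 CPM in LM2_LM, within the MYAZ range of 0 to 0.0562 CPM, to 74.9 CPM in LM3_LM, and its call was lost in 5 of 23 alternative fits. Tdrkh, of the piRNA pathway, was lower, from 2.73 to 8.18 CPM in MYAZ to at most 0.0148 CPM. Among the Hox genes, Hoxa3 and Hoxb4 did not pass (edgeR, adjusted p of 0.241 and 0.432).

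In the Myc network 4 of 11 tested were higher and 1 lower (45.5%, near the 38.9% over all genes), and with the lineage as 1 unit 0 of 12 passed (edgeR). Beside Myc these were its partner Max, at 76.5 to 97.7 CPM in MYAZ and 122.0 to 151.7 CPM in the lineage (log2 fold change 0.54 ± 0.09 SE, adjusted p = 0.00111, edgeR), the antagonist Mxi1 and the sensor Mlxip, and the lower gene was Mycl, at most 0.325 CPM in any line.

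**Figure D4:**
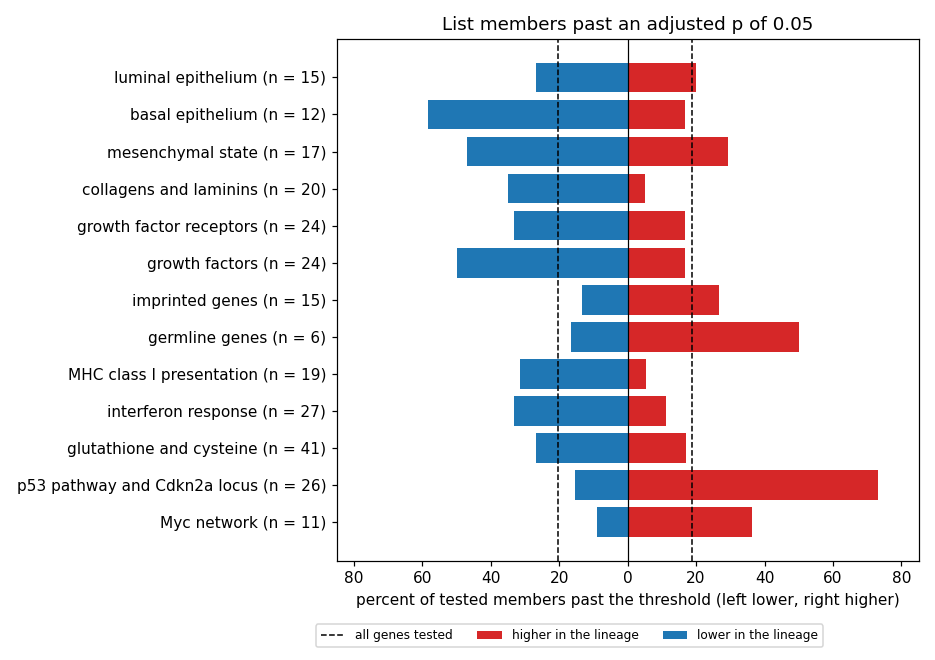
Percent of the tested members of 13 gene lists that were higher (right, red) or lower (left, blue) in the lineage at an adjusted p of 0.05, with n the number of members tested and dashed lines at the share over all 14644 genes tested. The p53 list reaches furthest to the right (19 of 26 higher), and of the lists drawn the basal list (7 of 12) and the growth factors (12 of 24) reach furthest to the left.

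Markers of other cell types were low or uneven in both groups. Summed over 8 leukocyte markers the level was 31.2 to 54.1 CPM in the lineage and 19 to 36.9 CPM in MYAZ, nearly all of it from Cd14 and Cd68, while Ptprc and Lyz2 were near 0 and Fcgr1 had no count. Cd68 was higher in the lineage (8.97 to 16.7 CPM against 4.69 to 5.75 CPM, adjusted p = 0.000893, edgeR), a call that was lost in 2 of its 24 alternative fits. Over 11 fibroblast markers the sum was 1.89 to 223.0 CPM in the lineage and 9.27 to 95.7 CPM in MYAZ, with Fap at 0 in each line, Dcn, Lum and Dpt below 0.1 CPM, and Col3a1 alone at 204.5 CPM in LM3_LM. Over 9 endothelial markers the ranges were 25.1 to 217.0 and 61.3 to 113.0 CPM, and Eng alone ranged from 1.90 to 190.2 CPM in the lineage, while Flt1 and Kdr were lower there (log2 fold changes of -1.33 and -5.95), with Pecam1, Tek, Tie1 and Vwf below 0.4 CPM in each line and Erg at 0. Alveolar markers summed to 0.482 to 5.90 CPM in the lineage and 2.16 to 4.82 CPM in MYAZ, with Sftpb at 0. By list, against 18.7% higher and 20.3% lower over all genes tested, 0 of 5 fibroblast markers tested were higher and 3 lower, 2 of 3 leukocyte markers were higher, 1 of 4 endothelial markers was higher and 2 lower, and 1 of 2 alveolar markers was lower. The part of such cells in the differences above was not tested, and in bulk samples fewer cells of a type and less RNA per cell cannot be told apart.

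Position on the genome was a further feature that the lineage lines shared. Genes of chromosome 2 were lower as a group: of 1164 tested 613 were called lower (52.7%, against 20.3% of all genes tested) and 69 higher, and the median log2 fold change was -0.42. The medians of the 7 lineage lines, each set against the mean of the MYAZ lines, lay between -0.42 and -0.35, and those of the MYAZ lines between -0.02 and 0.03. Chromosome 2 held 7.95% of the genes tested and 20.7% of those called lower. In windows of 20 Mb, the median was -0.19 from 0 to 20 Mb and -0.09 from 20 to 40 Mb, and from 40 Mb to the end of the chromosome it lay between -0.64 and -0.44. Thbs1, Ly75 and Gss, which were lower, and Galnt3, Slco4a1, Apbb1ip, Itga6 and Tfpi, which were higher, all lie on this chromosome, and the part of its shift in their fold changes was not tested.

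The X chromosome moved the other way, with 188 of 442 genes tested called higher (42.5%, against 18.7% of all) and 20 lower, and a median of 0.41. Lineage lines had X medians of 0.44 to 0.49, and the MYAZ lines differed among themselves, at 0.29 in MYAZ16_1e, -0.27 in MYAZ12_3i and 0.00 in MYAZ6_6g. Xist, the RNA that silences an X chromosome in female cells, was at 0.0282 CPM in MYAZ16_1e and at 698.6 and 579.1 CPM in MYAZ12_3i and MYAZ6_6g. In the lineage it was at 280.2 CPM in LM2, 82.0 in Myc310 and 0.0292 to 6.05 CPM in the other 5 lines, so the groups overlapped (log2 fold change -3.03 ± 1.98 SE, adjusted p = 0.255, edgeR). The part of Xist in the X medians was not tested. The Y-linked gene Kdm5d had no count and Uty at most 1 over the libraries of a group. Without MYAZ16_1e the X median was 0.61, and without MYAZ12_3i it was 0.28.

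Chromosome 13 had a median of 0.21, with 206 of 607 genes higher (33.9%) and 59 lower, and lineage lines at 0.21 to 0.27, but MYAZ6_6g alone reached 0.16. Chromosome 17 was lower (median -0.17, lineage lines -0.16 to -0.12). Chromosome 15, which carries Myc, split the lineage: Myc310, LM1, LM1_LM and LM2_LM had medians between -0.34 and -0.28, LM2 was near 0 and LM3 and LM3_LM were both at 0.14. Its shift is thus not common to the lineage, unlike those of chromosome 2 and the X chromosome.

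**Figure D5:**
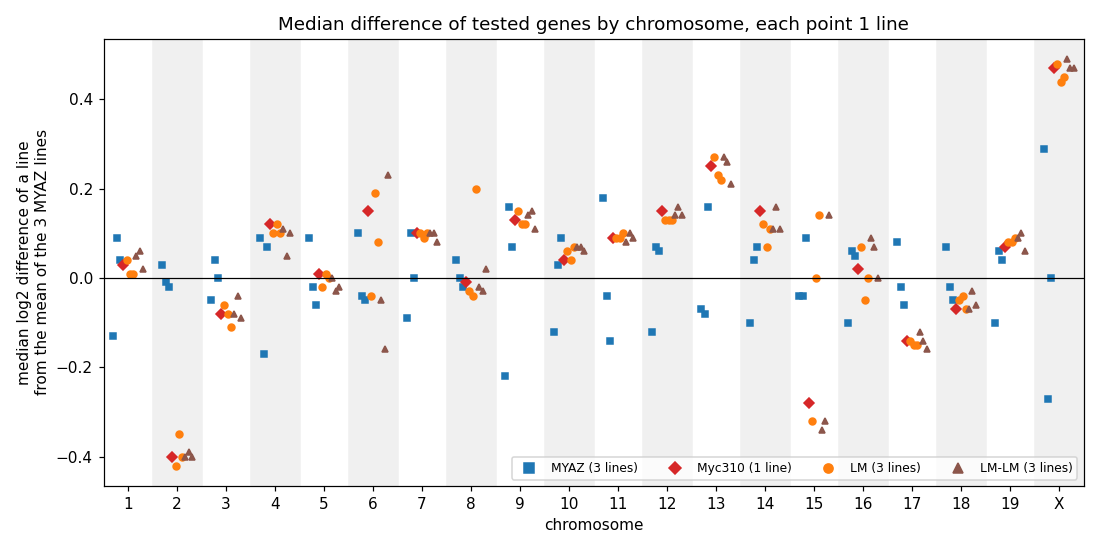
Median log2 difference of each line from the mean of the 3 MYAZ lines over the tested genes of each chromosome, 1 point per line and colour and shape by subtype. On chromosome 2 the 7 lineage points lie between -0.42 and -0.35 and on the X chromosome between 0.44 and 0.49, while on chromosome 15 they spread from -0.34 to 0.14.

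Within the lineage few differences were called. In a model with 4 subtypes, 4 of 14644 genes (0.0273%) differed between the 6 descendants and Myc310 at an adjusted p of 0.05 (edgeR, with 623 at an unadjusted p under 0.05), and none of the 24 genes above was among them. Myc310 is 1 line here, and its variance was assumed to be that of the other groups. The 4 genes, named after their values were seen, were the collagen receptor Ddr2, Dixdc1, Hspa12b and Greb1l. Ddr2 was at 66.4 CPM in Myc310, 307.0 to 401.8 CPM in the descendants and 180.9 to 259.1 CPM in MYAZ (log2 difference 2.36, adjusted p = 0.0266), so that MYAZ lay between founder and descendants. Dixdc1 and Hspa12b, at 0.644 and 0.0146 CPM in Myc310, were likewise expressed in both MYAZ and the descendants. Greb1l was at 3.64 to 7.73 CPM in MYAZ, 1.71 CPM in Myc310 and 0.0678 to 0.159 CPM in the descendants, and alone of the 4 was also called between lineage and MYAZ (log2 fold change -4.11, adjusted p = 0.00461). Between LM_LM and LM lines 0 genes passed (edgeR, 170 at an unadjusted p under 0.05). The fit took these lines as unpaired, although LM1 with LM1_LM and LM3 with LM3_LM were the nearest pairs. Spread between pairs thus entered its error, and the count of 0 does not show that the lines are alike. In the same model Myc310 differed from MYAZ in 1496 genes, LM in 3645 and LM_LM in 4049, and these counts rest on 1, 3 and 3 lines against the same MYAZ lines.

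The same genes were read in libraries that the comparison did not use. In medium without cysteine and cystine, 9 libraries of Myc310, LM1 and LM1_LM and 3 of MYAZ16_1e were available. All 24 of the ranked increases and decreases kept their direction without overlap there. Of the 37 genes silent in the lineage 34 stayed at 3 counts or fewer in each of those 9 libraries, and of the 24 silent in MYAZ 23 did so in the 3 libraries of MYAZ16_1e. These are the same lines in another medium and add no new founder. The line labelled MYAZ12_3i_NDI1 (3 libraries) lay with the MYAZ lines for these genes. It had 36 of the 37 genes above 1 CPM in each library and 23 of the 24 at the floor. The 24 ranked increases and decreases set its libraries apart from all 21 lineage libraries. Its label names MYAZ12_3i, a line used to choose these genes, so it is no independent sample of them.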

How the data were processed

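mRNA was sequenced from 45 libraries, prepared with a directional poly(A) kit. According to the submitters' processing notes, the authors aligned reads to GRCm38 with STAR and RSEM and used DESeq2 1.38.3 in R 4.2.2, and they deposited a table of whole-number gene counts without normalization. The annotation release and the strand setting of the counting are not given in the sources used here. The table lists 28454 genes, of which 28407 identifiers matched GENCODE M21, and 0.0106% of counts fell outside those.

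The 3 cultures of each line were summed, because they are technical replicates, and 7 lineage lines were compared with 3 MYAZ lines by edgeR's quasi-likelihood test (edgeR 4.0.16, R 4.3.3, TMM factors, filterByExpr, Benjamini-Hochberg adjusted p of 0.05). p-values from this test come from edgeR unless another tool is named. Lineage lines share 1 founder, so 1-unit and founder-only fits were run beside it, with RLE and upper-quartile factors, other filters, DESeq2 1.42.0, limma 3.58.1 (voom), single libraries and lines left out as further alternatives. Total counts were 19517859 to 29019988 per library, and intervals and bounds cover counting error only.

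Members and gene lists were chosen with earlier results of these data known. Named genes were the 12 largest increases and 12 largest decreases among called genes without overlap whose log2 CPM averaged 3 or more over the 10 lines, the 6 most expressed genes silent in either group, up to 4 members of each list (the 2 lowest adjusted p-values in each direction), and Myc and sex-linked genes as checks, with predicted genes passed over. Ddx3y and Eif2s3y were not used here, and some list members are not reported here. Other list members in the text were chosen after their values were seen. Bounds for genes without a count use a floor of 3 counts over the group. Only 71.1% of genes tested had a promoter window in the RefSeq table, so a comparison of promoter CG content between gene sets was void and is not given.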

Additional observations from a re-analysis of the deposited data

Results flagged for a closer look

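In 5 of 70 gene levels examined across the 7 lineage lines, 1 line stood apart from the other 6 by Dixon's gap test at the 95% level, which chance alone does in about 1 of 20 such groups. Ptprf, a receptor phosphatase, was at 23.1 CPM in Myc310 and 1.56 to 7.59 CPM in its descendants. Fbp2, of gluconeogenesis, was at 143.7 CPM in LM2_LM and 11.9 to 53.5 CPM elsewhere in the lineage. The remaining 3 concerned LM2: Ccdc102a at 8.74 CPM (other lines 5.4 to 6.78), the X-inactivation RNA Xist at 280.2 CPM (0.0292 to 82.0) and the X-linked germline gene Xlr3a at 17.3 CPM (0.624 to 6.05).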

How the results depend on the processing

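The count of genes past the threshold depended on what was taken as the replicate. With the lineage summed to 1 unit 625 genes passed (298 higher, 327 lower) and with Myc310 alone 595 (231 higher, 364 lower), and 40 and 38 list members passed, against 144 in the comparison as reported. With 30 libraries as samples 8552 genes passed (4432 higher, 4120 lower), and 8428 with the replicate block (4373 higher, 4055 lower), where culture numbers showed no pairing (median correlation of 0.00484 for the same number and 0.00202 for others, 11 of 30 libraries correlating best with their own number). Taken over single libraries, the genes whose lineage and MYAZ lines do not overlap numbered 2944. Leaving out 1 line gave 4547 to 6003 genes (2176 to 2928 higher, 2371 to 3075 lower) and 120 to 157 list members. Other settings gave 4746 to 6406 genes. Lower calls outnumbered higher ones in the comparison as reported, but not with single libraries, with or without the block, or with voom (2892 higher, 2855 lower) or without LM1_LM (2669 higher, 2633 lower). Chromosome medians without 1 MYAZ line ranged from -0.43 to -0.4 on chromosome 2, 0.17 to 0.31 on chromosome 13 and 0.28 to 0.61 on the X chromosome, and over genes whose log2 CPM averaged 3 or more were 0.28 on chromosome 13 and 0.45 on the X chromosome. No named gene changed direction in the alternatives that tested it, and 44 of 88 named genes passed in each alternative that tested them, which for some genes was fewer than 24. The causes were not tested. With 3 MYAZ lines and 1 lineage founder, differences between founders cannot be told apart from differences of metastatic capacity.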
